A study of Bactrocera dorsalis with 16 samples.

Results

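The miR-276 sequences of the oriental fruit fly, Bactrocera dorsalis, were followed in ovary and fat body of adult females. Every entry of the deposited table named miR-276, miR-276a or miR-276b was taken, whatever its species prefix or arm, which gave 12 of 788 entries, and entries with the same letters were summed, which left 7 of 747 distinct sequences. Of these 7, 5 reached a signal of at least 10 in at least 2 libraries and were tested together with the other sequences that did so, 321 in all. The 8 groups, with 2 libraries each, are ovary at 1, 5, 9 and 13 days after eclosion and fat body at the same ages, all from females kept on a diet of yeast extract and sugar under one light and temperature regime. No group was treated or mutated. How many flies a library holds is not given in the labels. The labels list 16 libraries, the design text speaks of 8 samples with 2 biological replicates, and the p-values therefore measure only the spread between these libraries, which may be technical.

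A miRNA gene is transcribed as a hairpin, from which Dicer cuts a duplex of a 5p and a 3p arm. Usually 1 arm is loaded into Argonaute and kept, and its seed, bases 2 to 8, pairs with target messages. The miR-276 family is found widely in insects. In Drosophila melanogaster miR-276a acts in mushroom body neurons on a dopamine receptor used in olfactory memory. In Anopheles mosquitoes miR-276 acts in the fat body after a blood meal on branched-chain amino acid transferase and limits the yolk-making phase, and in locusts it bears on the synchrony of egg hatching.

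The sequences are shown because the measurements turn on single letters of them. The capitals mark the seed, and the first 3 below carry nearly all of the miR-276 signal.
miR-276a (bdo-miR-276a, 3p arm): tAGGAACTtcataccgtgctct
miR-276b 3p (bdo-mir-276b-p3): tAGGAACTtaataccgtgctct
miR-276 5p (bdo-miR-276b_R-1): aGCGAGGTatagagttcctac
miR-276b 3p with 1 base more (dme-miR-276b-3p_R+1): tAGGAACTtaataccgtgctctt
miR-276a with 2 bases more (aae-miR-276-3p_L+2R+1): aATAGGAActtcataccgtgctct
The first pair, each 22 bases long, differed at 1 position, C10A, counted from 1 at the 5′ end with the base of miR-276a first, so they share the seed AGGAACT. The form with 2 bases more at its 5′ end has its seed moved to ATAGGAA. The 5p sequence has the seed GCGAGGT. No sequence of the table outside the miR-276 entries had any of these seeds (0 for each). The other two miR-276 sequences, which were not tested, are 5p forms with other 3′ ends, 1 with C21T against the main 5p form. The 1 with C21T was above 0 in 10 libraries with a signal of at most 9.72, and the other in 4 libraries with at most 3.64.

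The table names the main 5p sequence for miR-276b, but no hairpin was used here, so whether it comes from the hairpin of miR-276a, of miR-276b or of both cannot be told. Folded against either 3p sequence with RNAduplex, it paired over 18 bases in each case. Base 10 of the 3p arm, the 1 that differs, was unpaired in both duplexes, as was base 16. Of the 12 entries, 5 repeat the sequence of another miR-276 entry with identical values. In sequences with 2 entries a single entry came to a whole number of reads in 19 of 46 library values and to a whole number plus 1 part of 2 in 27. The sum was whole within 0.1 reads in 46 of 46. Only values of few reads per entry were checked in this way. The main 5p sequence had 0 such values, so the check does not cover it. The summed values are given throughout.

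The summed signal of a library lay between 434089 and 1155602. Reads recovered from the spacing of the low values numbered 193955 to 1865206 per library, of which miR-276a had 48653 to 559806, miR-276b 3p 1556 to 27998 and the 5p sequence 249 to 2903. The replicate 2 libraries of day 9 stood apart and are drawn as open squares in the plots. Over the tested sequences, replicate 2 of ovary at day 9 was most like replicate 1 of fat body at day 9 (r = 0.942, against 0.902 with its own replicate). Replicate 2 of fat body at day 9 was most like replicate 1 of ovary at day 9 (r = 0.975, against 0.801 with its own replicate). The miRNAs of ovary and early embryo summed to 33.7% of replicate 2 of fat body at day 9 and to at most 0.663% of the other 7 fat body libraries. The muscle miRNAs (miR-1 forms) summed to 6.71% of replicate 2 of ovary at day 9, to 0.710% of its replicate and to 4.32% to 4.97% of the ovary libraries of days 1 and 5. These 2 libraries are called the day 9 pair, and most tests are given with all 16 libraries and without that pair.

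miR-276a, the dominant sequence, had lower signal in ovary than in fat body, by 1.82-fold over the mean of the 4 days, and by 3.34-fold at day 13. In bulk tissue, fewer cells of a type and less RNA per cell cannot be told apart. In the replicates at day 1, miR-276a stood at 161857 and 169170 in ovary, and at 249217 and 252460 in fat body. At day 5 it stood at 111999 and 95126 in ovary, and at 191221 and 165739 in fat body. The groups did not overlap at either day, with ovary lower. At day 9 replicates 1 and 2 held 77264 and 182899 in ovary, and 289076 and 76670 in fat body, so the tissues overlapped through the replicate 2 libraries. At day 13 it stood at 90470 and 124349 in ovary, and at 320855 and 390061 in fat body, without overlap.

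**Figure D1:**
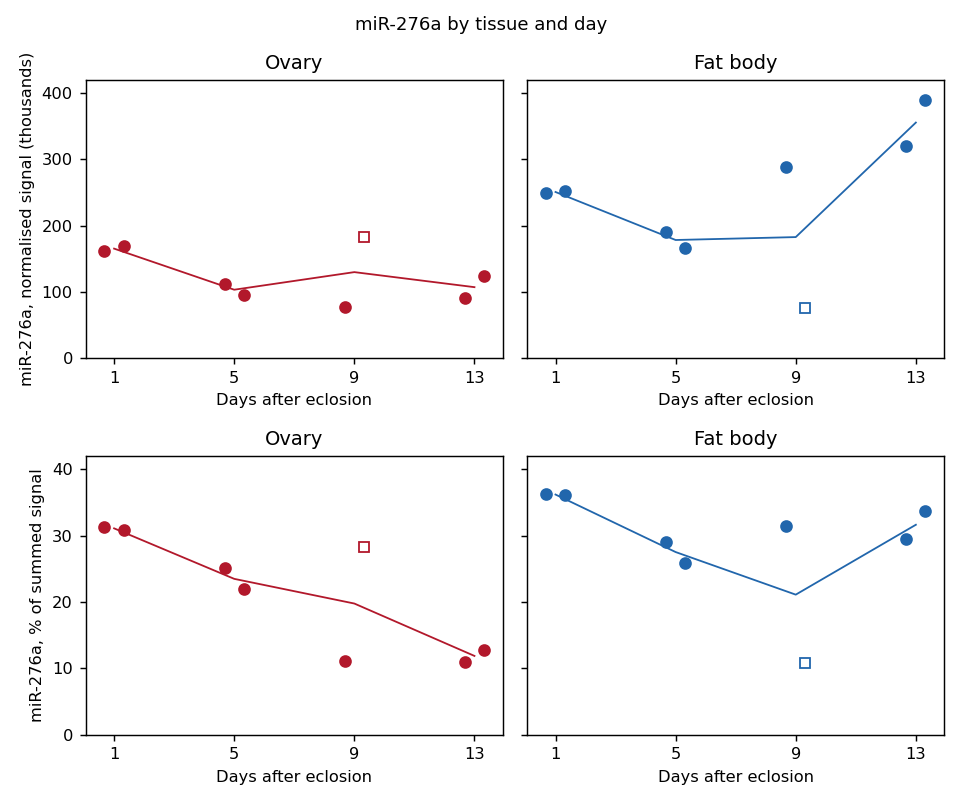
Signal of miR-276a in each library (vertical axis, deposited normalised signal) by day after eclosion (horizontal axis), ovary in the left panel and fat body in the right. Circles are libraries, open squares the day 9 replicate 2 libraries, and the line joins group means. By signal, the fat body libraries of day 13, at 320855 and 390061, are the highest. Replicate 2 of day 9 has the highest signal of the ovary libraries, at 182899, and the lowest of the fat body libraries, at 76670.

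Ordered by mean signal of miR-276a, fat body at day 13 came first with 355458 ± 48936, followed by fat body at day 1 with 250838 ± 2293, day 9 with 182873 ± 150193 and day 5 with 178480 ± 18019. The ovary groups came after all of these, with 165513 ± 5171 at day 1, 130081 ± 74695 at day 9, 107410 ± 23956 at day 13 and 103563 ± 11931 at day 5 (SD, n = 2 each). The first of these groups did not overlap the next, and all later neighbours in this order overlapped.

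Over the mean of the 4 days, the log2 difference of ovary minus fat body, on log2(signal + 1), was -0.86 (SE 0.27) for miR-276a. It passed in limma with Benjamini-Hochberg adjustment over 321 sequences (adjusted p = 0.0243). For miR-276b 3p the difference was -1.08 (SE 0.30, adjusted p = 0.0160), and for the 5p sequence -1.23 (SE 0.34, adjusted p = 0.0165). In all, 3 of 5 miR-276 sequences were called lower in ovary, where 37.1% of all tested sequences were called in either direction and 12.5% lower in ovary. The forms with 1 base more (log2 -0.99) and 2 bases more (log2 -0.88) did not pass (adjusted p = 0.0674 each). All 5 were below an unadjusted p of 0.05 in limma, as were 153 of all 321 sequences. On recovered reads of 15 libraries, which leave out replicate 2 of ovary at day 9, edgeR and DESeq2 each called 5. Without that same library limma also called 5.

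**Figure D2:**
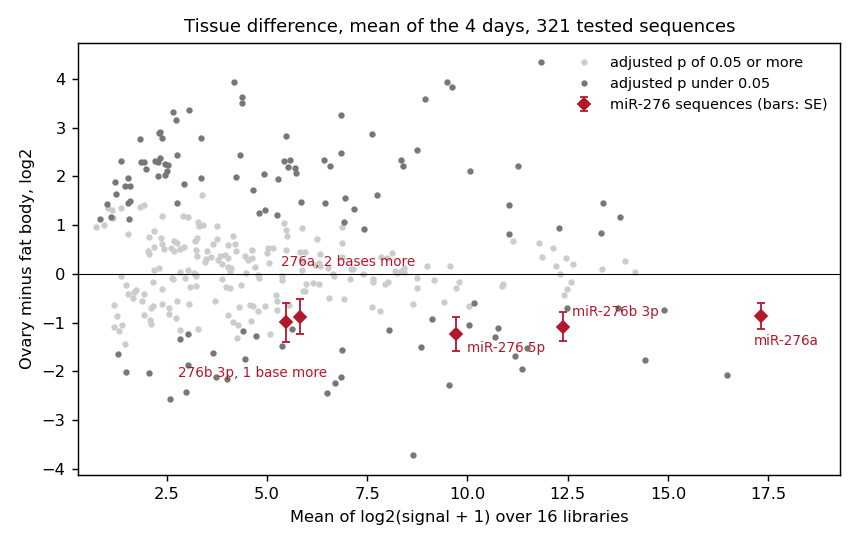
Log2 difference of ovary minus fat body over the mean of 4 days (vertical axis) against the mean of log2(signal + 1) over all libraries (horizontal axis) for the 321 tested sequences. Diamonds are the 5 tested miR-276 sequences with their standard errors. All 5 lie below 0, between -1.23 and -0.86, and miR-276a lies at the right end of the abundance axis.

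These calls depended in part on the scaling. With TMM factors limma called 3 of 5, as on the deposited scale. With values scaled to library totals, 0 of 5 miR-276 sequences were called in limma (0.131 for miR-276a, 0.0580 for miR-276b 3p and 0.0574 for the 5p sequence as adjusted p). The log2 difference of miR-276a was then -0.48, and the median of all tested sequences 0.56, against -0.86 and 0.20 on the deposited scale. The calls among all sequences split into 79 higher and 40 lower in ovary on the deposited scale, 104 and 19 with library totals, 93 and 23 with totals that leave out miR-276, and 77 and 41 with TMM factors. With the day 9 pair left out, miR-276a was 2.39-fold lower in ovary (log2 -1.26, adjusted p = 2.71e-06 in limma), and 5 of 5 were called where 54.2% of all sequences were. With all others kept, the limma call on miR-276a was lost without ovary day 5 replicate 2, fat body day 5 replicate 1, ovary day 9 replicate 1, ovary day 13 replicate 1 or fat body day 13 replicate 2. The adjusted p then lay between 0.0540 and 0.0633.

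At single days, with all libraries, only day 13 gave calls. There 4 of 5 miR-276 sequences were called lower in ovary by limma, where 44.9% of all tested sequences were called and 14.3% lower in ovary. At day 13 miR-276a had a log2 difference of -1.74 (SE 0.53, adjusted p = 0.0195 in limma), and it kept its call under all 3 other scalings. The call was lost without ovary day 13 replicate 1, fat body day 13 replicate 1 or fat body day 13 replicate 2, with adjusted p of 0.122, 0.0620 and 0.101. At days 1, 5 and 9 limma called 0 of 5, with 0 below an unadjusted p of 0.05 and 0 in edgeR and in DESeq2, where 3.12%, 2.18% and 0% of all sequences were called. The log2 differences of miR-276a at these days were -0.60, -0.79 and -0.32. When the day 9 pair, whose spread enters every comparison, was left out, 2 were called at day 1 and 3 at day 5, miR-276a at both (adjusted p = 0.0403 and 0.00865 in limma). The share of all sequences called at these days in that setting is not given here. Over the mean of the 4 days that share was 54.2% without the pair and 37.1% with it. Day 9 then has 1 library a tissue, and the log2 difference of miR-276a there was -1.90.

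As a share of the library, miR-276a took 31.3% and 30.9% in ovary at day 1, against 36.2% in each fat body replicate. At day 5 it took 25.1% and 21.9% in ovary, against 29.1% and 26.0% in fat body. At day 9 replicates 1 and 2 held 11.2% and 28.4% in ovary, against 31.4% and 10.8% in fat body. The ovary shares of days 1 and 5 lay below those of fat body, and at day 9 the tissues overlapped. At day 13 the ovary replicates held 11.0% and 12.7%, and those of fat body 29.5% and 33.8%. miR-276a was the most abundant sequence in 12 of 16 libraries. It ranked second in both fat body libraries of day 5, behind miR-8, and in ovary day 9 replicate 1, behind miR-989. In replicate 2 of fat body at day 9 it had rank 3, and miR-994 was first there.

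The share averaged 21.6 ± 8.76% in ovary and 29.1 ± 8.22% in fat body (SD, n = 8 each). The difference of -7.56 percentage points did not pass an exact permutation test that exchanged tissues within days (p = 0.0586 of 1296 arrangements, two-sided, smallest possible 0.00154, and 0.141 after adjustment over 12 such tests). It was -11.2 points without the day 9 pair (exact p = 0.00463) and -9.63 points without day 9 (exact p = 0.00926). Over days, the mean shares spanned 19.2 points in ovary (exact permutation p = 0.190) and 15.1 points in fat body (exact permutation p = 0.305). Without the day 9 pair these spans were 19.9 (exact permutation p = 0.0286) and 8.67 points (exact permutation p = 0.114). For the signal of miR-276a, the day means spanned 0.68 on the log2 scale in ovary and 1.25 in fat body, and neither passed limma's joint test over days (adjusted p = 0.648 and 0.258). With the day 9 pair left out, the spans were 1.10 and 0.99, and both passed (adjusted p = 0.00696 and 0.0155 in limma).

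With all libraries in limma, miR-276b 3p was the only miR-276 sequence called over days in ovary, where its mean at day 13 was 0.120 times that of day 1. In ovary its signal was 9662 and 10389 at day 1, 4914 and 3967 at day 5, 2108 and 5378 at day 9, and 1007 and 1406 at day 13. The day 1 libraries were the highest and those of day 13 the lowest, and the values of days 5 and 9 overlapped. In fat body it was 12464 and 12460 at day 1, 8055 and 6174 at day 5, 8887 and 2142 at day 9, and 8789 and 9713 at day 13. There the libraries of day 1 were again the highest, and the lowest was replicate 2 of day 9. The sequence ranked between 10 and 56 by abundance in ovary libraries, and between 7 and 40 in fat body libraries.

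Ordered by mean signal of miR-276b 3p, fat body at day 1 (12462 ± 2.84) came before ovary at day 1 (10025 ± 514), fat body at day 13 (9251 ± 653), fat body at day 5 (7115 ± 1330) and fat body at day 9 (5514 ± 4769). The remaining ovary groups followed, with 4440 ± 670 at day 5, 3743 ± 2313 at day 9 and 1207 ± 282 at day 13 (SD, n = 2 each; the order runs by level). Fat body at day 1 lay apart from its next neighbour, as did fat body at day 13 from fat body at day 5 and ovary at day 13 from ovary at day 9. The other neighbours overlapped.

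In ovary the day means of miR-276b 3p spanned 3.07 on the log2 scale, and limma's joint test over days passed (adjusted p = 0.0103). It was the only 1 of 5 miR-276 sequences called there, where 27.1% of all sequences were called. Below an unadjusted p of 0.05 in limma were 2 of 5, and 143 of all 321 sequences. Calls by edgeR and DESeq2 numbered 2 each, as did those of limma without replicate 2 of ovary at day 9, the library those tools leave out. The form with 1 base more spanned 3.08 and did not pass (adjusted p = 0.0557 in limma). When the day 9 pair was left out, day 9 had 1 library in ovary. The spans were then the same for miR-276b 3p and the form with 1 base more, 1.10 for miR-276a and 1.46 for the 5p sequence. The call on miR-276b 3p held under every other scaling, and was lost without ovary day 1 replicate 2 (adjusted p = 0.0528) or ovary day 13 replicate 1 (adjusted p = 0.0756). In fat body the means spanned 1.51 (adjusted p = 0.223 in limma), and 0 of 5 miR-276 sequences were called, with 0 below an unadjusted p of 0.05 and 0 in edgeR and DESeq2, where 16.5% of all sequences were called. Without the day 9 pair miR-276b 3p spanned 0.82 there and miR-276a 0.99.

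At day 13 miR-276b 3p was 7.76-fold lower in ovary than in fat body (log2 -2.96, SE 0.59, adjusted p = 0.00220 in limma). With the day 9 pair left out, the difference was the same (adjusted p = 2.03e-06). This call was kept without each of the 16 libraries in turn and under each other scaling. The form with 1 base more was 8.38-fold lower (log2 -3.07, adjusted p = 0.00899), a call lost without fat body day 13 replicate 2 (adjusted p = 0.0648). Whether the tissue difference itself changed with day was asked by the interaction, in which limma called 0 of 5 miR-276 sequences, where 11.2% of all were called. The tissue difference of miR-276b 3p spanned 2.64 over days (unadjusted p = 0.0219, the only 1 of 5 below 0.05, and adjusted p = 0.125 in limma), and edgeR and DESeq2 called 0. Of all 321 sequences, 78 were below an unadjusted p of 0.05 for the interaction. When the day 9 pair was left out, day 9 had 1 library a tissue, and the span for miR-276b 3p was again 2.64. No step between successive days was called for any miR-276 sequence in either tissue (0 of 5 in each of 6 steps, edgeR and DESeq2 also 0). Without the day 9 pair, steps were called for miR-276a (log2 -0.68, adjusted p = 0.0411 in limma) and miR-276b 3p (-1.18, adjusted p = 0.0127) at day 5 against day 1 in ovary, and for miR-276b 3p at day 5 against day 1 in fat body (-0.82, adjusted p = 0.0443). At day 9 against day 5 in ovary, where day 9 then has 1 library, the log2 differences were -1.07 for miR-276b 3p and -0.99 for the 5p sequence. With all libraries, at most 8.10% of all sequences were called in these steps, and the share called without the pair is not given here. Unadjusted p-values below 0.05 were found for miR-276b 3p and its longer form at day 13 against day 9 in ovary, and for miR-276a at the same step in fat body. In each of these steps 70 of all 321 sequences were below an unadjusted p of 0.05. Those called were 0.623% in ovary and 0.312% in fat body.

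The ratio of miR-276a to miR-276b 3p within a library does not depend on how the library was scaled. It was larger at every later day in both tissues, and at day 13 it was 89.1 ± 0.979 in ovary and 38.3 ± 2.58 in fat body (SD, n = 2 each). In ovary the ratio was 16.8 and 16.3 at day 1, 22.8 and 23.98 at day 5, 36.7 and 34.0 at day 9, and 89.8 and 88.4 at day 13. In fat body it was 19.99 and 20.3 at day 1, 23.7 and 26.8 at day 5, 32.5 and 35.8 at day 9, and 36.5 and 40.2 at day 13. Within each tissue no 2 days overlapped. The tissues overlapped at days 5 and 9 and not at days 1 and 13, with ovary lower at day 1 and higher at day 13. At day 9 replicate 2 of ovary (34.0) lay nearer replicate 1 of fat body (32.5) than its own replicate (36.7), and replicate 2 of fat body (35.8) nearer replicate 1 of ovary than its own. The mean ratio at day 13 was 5.39 times that of day 1 in ovary and 1.90 times that in fat body.

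**Figure D3:**
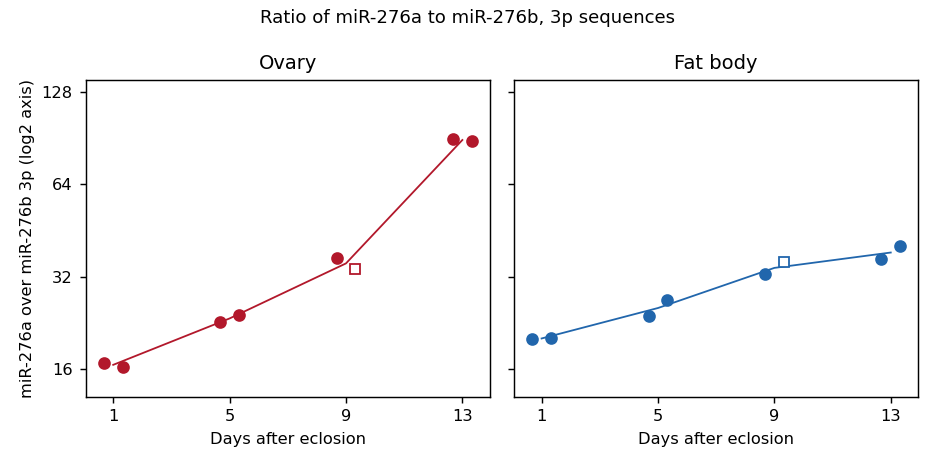
Ratio of miR-276a to miR-276b 3p signal in each library (vertical axis, log scale) by day after eclosion (horizontal axis), ovary left and fat body right. Circles are libraries, open squares the day 9 replicate 2 libraries, and the line joins group means. The ovary replicates reach 89.8 and 88.4 at day 13, while those of fat body reach 36.5 and 40.2.

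On the log2 scale the day means of this ratio spanned 2.43 in ovary and 0.93 in fat body. In each tissue an exact permutation test over days gave p = 0.00952, the smallest that 2520 arrangements allow, and 0.0571 after Benjamini-Hochberg adjustment over the 12 tests, so neither passed with adjustment. With the day 9 pair left out, both spans and both p-values were the same to these digits. The log2 ratio of ovary minus fat body was -0.29 at day 1, -0.11 at day 5, 0.05 at day 9 and 1.22 at day 13. The span of these differences over days, 1.504, was tested by exchanging tissues within days (exact permutation p = 0.0201 of 1296 arrangements, 0.0602 adjusted over the 12 tests). The null of that test is no tissue difference on any day, so it does not test the change with day alone. When the day 9 pair was left out, the span was the same and the exact permutation p was 0.0370. Over all days the log2 ratio averaged 5.05 ± 0.97 in ovary and 4.84 ± 0.40 in fat body (SD, n = 8 each, exact permutation p = 0.313), a difference of 0.22, and the difference was 0.26 without the day 9 pair (exact permutation p = 0.310).

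The 5p arm was a small part of the miR-276 signal, between 0.0363% and 0.147% of ovary libraries and between 0.0547% and 0.239% of fat body libraries. In ovary it stood at 676 and 709.7 at day 1, 573 and 432 at day 5, 251 and 945 at day 9, and 556 and 544 at day 13. In fat body it stood at 1292 and 1312 at day 1, 1569 and 1168 at day 5, 1825 and 389 at day 9, and 2046 and 1789 at day 13. The tissues overlapped at day 9 only, with ovary lower on the other days. At day 13 the 5p sequence was 3.47-fold lower in ovary (log2 -1.80, SE 0.69, adjusted p = 0.0484 in limma). That call was lost with library totals (adjusted p = 0.0879), with totals that leave out miR-276 (0.0597), without the filter on low values (0.0745), with repeated entries taken once (0.0515) and with a replicate block (0.0629). It was also lost without any 1 library of days 1, 5 or 13, the highest adjusted p being 0.156 without fat body day 13 replicate 1. Over days it did not pass in either tissue (adjusted p = 0.903 in ovary and 0.513 in fat body in limma's joint test), with spans of 0.51 and 1.18 on the log2 scale. Without the day 9 pair it passed in ovary (span 1.46, adjusted p = 0.0103 in limma) and not in fat body (span 0.55, adjusted p = 0.179), and the day 13 difference between tissues was the same (adjusted p = 8.15e-05).

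Both 3p sequences were divided by the 5p sequence to give an arm ratio, which stood above 100 in every library. In ovary it was 254 and 253 at day 1, 204 and 229 at day 5, 316 and 199 at day 9, and 165 and 231 at day 13. In fat body it was 202 in both replicates at day 1, 127 and 147 at day 5, 163 and 203 at day 9, and 161 and 223 at day 13. Ovary was higher without overlap at days 1 and 5, and the tissues overlapped at days 9 and 13. The log2 arm ratio averaged 7.83 ± 0.28 in ovary and 7.46 ± 0.28 in fat body (SD, n = 8 each). That difference of 0.37 had an exact permutation p of 0.0201 (1296 arrangements, two-sided), and 0.0602 after adjustment over the 12 tests. Over days the ratio spanned 0.38 in ovary (exact permutation p = 0.590) and 0.56 in fat body (exact permutation p = 0.2). With the day 9 pair left out, the tissue difference was 0.43 (exact permutation p = 0.0278), and the spans were 0.70 in ovary (exact permutation p = 0.181) and 0.56 in fat body (exact permutation p = 0.276).

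**Figure D4:**
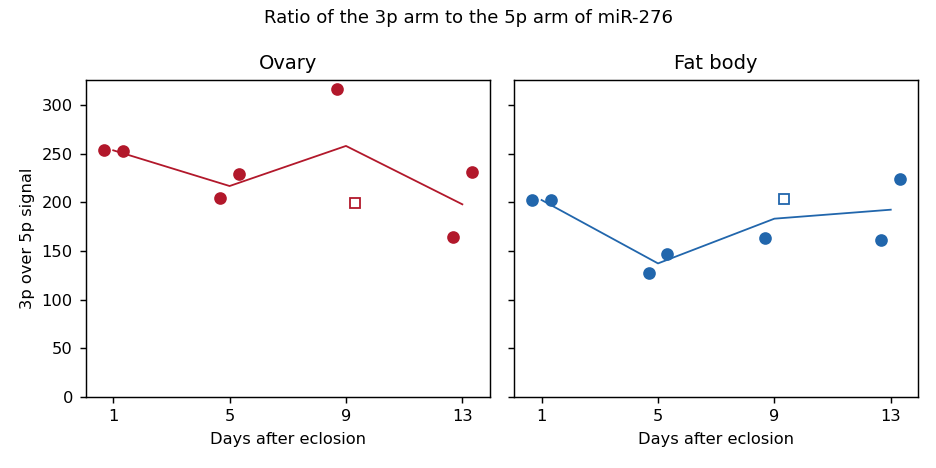
Ratio of the summed 3p signal of miR-276a and miR-276b to the 5p signal in each library (vertical axis, linear from 0) by day after eclosion (horizontal axis), ovary left and fat body right. Circles are libraries, open squares the day 9 replicate 2 libraries, and the line joins group means. At days 1 and 5 the ovary libraries, at 204 to 254, lie above those of fat body, at 127 to 202.

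Since nearly all 3p signal is miR-276a, this ratio is mostly that of miR-276a to the 5p sequence. With miR-276b 3p alone over the 5p sequence, an alternative chosen after the data were seen, the ratio ran between 1.81 and 14.6 in ovary and between 4.30 and 9.64 in fat body. Its log2 day means spanned 2.74 in ovary (exact permutation p = 0.00952, the smallest possible), and its tissue difference of 0.16 did not pass (exact permutation p = 0.546).

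The length variants were set against their parent sequences. The form of miR-276b 3p with 1 base more had 5.79 to 10.6 units per 1000 units of miR-276b 3p in ovary, with a median of 8.71, and 4.59 to 11.7 in fat body, with a median of 8.41. The form of miR-276a with 2 bases more had 182 to 559 units per 1000000 units of miR-276a in ovary, with a median of 322, and 196 to 684 in fat body, with a median of 357. The ranges of the tissues overlapped for both variants. The form with 2 bases more, whose seed is shifted, had a signal of at most 113 in any library.

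Because miR-276 took so much of each library, it set part of the share left to other miRNAs. All miR-276 sequences together held 11.2% to 33.3% of ovary libraries, with a median of 24.6%, and 11.2% to 38.2% of fat body libraries, with a median of 31.6%. Leaving them out of the denominator multiplied the share of every other sequence by 1.13 to 1.4996 in ovary and by 1.13 to 1.62 in fat body. The mean log2 multiplier of ovary minus fat body was -0.15 over all days and -0.39 at day 13. For instance, the share of miR-8, a miRNA of growth and insulin signalling in the Drosophila fat body, was 8.76 ± 7.16% in ovary and 24.9 ± 7.69% in fat body. Without miR-276 in the denominator it was 11.7 ± 10.3% in ovary and 36.6 ± 11.5% in fat body (SD, n = 8 each).

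**Figure D5:**
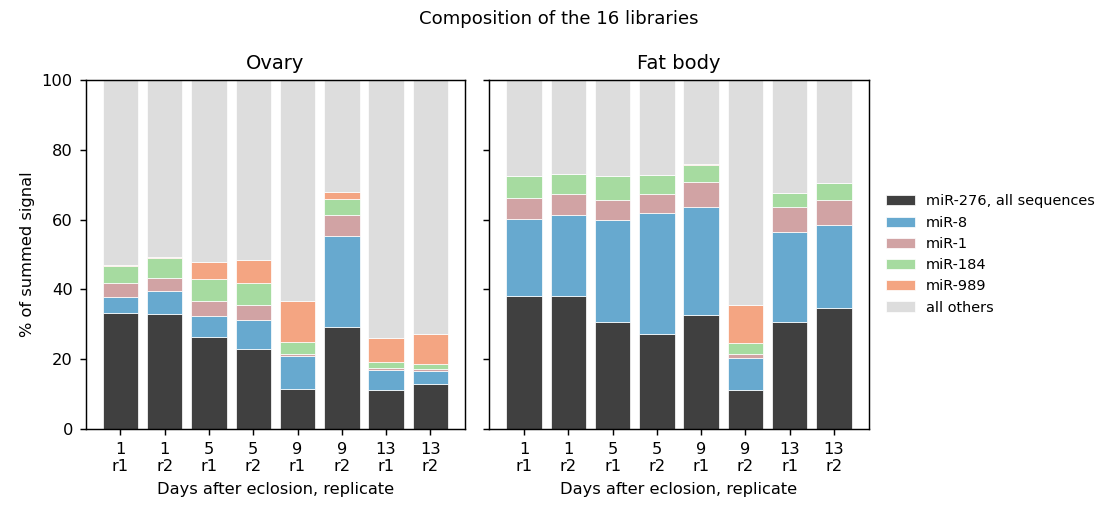
Share of the summed signal (vertical axis, percent) in each of the 16 libraries (horizontal axis), stacked for all miR-276 sequences, miR-8, miR-1, miR-184, miR-989 and all other sequences, ovary left and fat body right. The miR-276 block runs between 11.2% and 38.2%, and the miR-8 block of day 9 takes 9.40% and 25.9% in replicates 1 and 2 of ovary, against 30.9% and 9.22% in those of fat body.

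The effect on calls was counted over the 316 tested sequences outside miR-276, with shares compared between tissues over the mean of the 4 days. Limma called 123 of them with all sequences in the denominator, 104 higher and 19 lower in ovary, and 112 without miR-276 in it, 91 higher and 21 lower. Over all 321 sequences 38.3% were called on shares and 34.9% on shares without miR-276. The calls shared in direction numbered 110, and 13 were made only with miR-276 in the denominator and 2 only without it. The sign of the difference turned in 14 sequences. The median log2 difference of the 316 was 0.59 on shares, 0.45 on shares without miR-276 and 0.22 on the deposited scale. When the day 9 pair was left out, the calls numbered 187 and 175. At day 13 the split was 104 higher and 30 lower with miR-276 in the denominator, and 92 higher and 40 lower without it, and the sign turned in 12.

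Among the most abundant others, the call on miR-31b changed with the denominator, and those on miR-14 and miR-184 were made on the deposited scale and on neither kind of share. The share of miR-31b (dme-miR-31b-5p_R+1_1ss15AC) was higher in ovary by 0.65 on the log2 scale (adjusted p = 0.00811 in limma), and by 0.50 without miR-276 in the denominator, which did not pass (adjusted p = 0.0538). On the deposited scale its difference was 0.26 (adjusted p = 0.248). For miR-14 (bdo-miR-14), which acts on fat metabolism in Drosophila, ovary was lower by 0.70 on the deposited scale (log2 -0.70, adjusted p = 0.00833 in limma), while shares gave -0.32 (adjusted p = 0.157) and shares without miR-276 gave -0.47 (adjusted p = 0.0523). For miR-184 (bdo-miR-184), needed in the Drosophila female germ line, the deposited scale gave -0.74 (adjusted p = 0.0103 in limma), shares -0.36 (adjusted p = 0.108) and shares without miR-276 -0.51 (adjusted p = 0.0704). Calls on miR-8, on miR-1 of muscle, on miR-989 of border cell migration in Drosophila and on miR-999 were made on all 3 scales, and miR-11 (bdo-miR-11) passed on none.

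Likeness to miR-276a was described by Pearson's r of log2(signal + 1) over the 16 libraries, which share their scaling, and no test was made of it. Among its own family the 5p sequence had the highest r, at 0.940, followed by miR-276b 3p at 0.794 and the forms with 1 and 2 bases more at 0.783 and 0.745. Of the 316 other sequences, whose median r was -0.12, only 2 lay above 0.9, miR-981 (bdo-miR-981) at 0.915 and miR-277 (dme-miR-277-3p), a regulator of branched-chain amino acid breakdown in Drosophila, at 0.902. Next were let-7 (bdo-let-7), a regulator of developmental timing, at 0.888, miR-1 (bdo-miR-1) at 0.881 and miR-252 (bdo-miR-252) at 0.877. The lowest r belonged to sequences of low signal, bdo-miR-11597_1ss12AG at -0.964, with a mean of 14.9 in ovary and 4.53 in fat body, and the predicted candidates PC-3p-46360_237 at -0.906 and PC-5p-113951_71 at -0.890. On shares of the library the r of bdo-miR-276b_R-1, the 5p sequence, was 0.918, that of bdo-mir-276b-p3, miR-276b 3p, 0.908, and those of miR-1, miR-981 and miR-277 were 0.933, 0.917 and 0.835. The sequence bdo-miR-11597_1ss12AG was then at -0.790. Without the day 9 pair, on signal, the 5p sequence was at 0.933, miR-276b 3p at 0.771, miR-981 at 0.913, miR-277 at 0.905 and bdo-miR-11597_1ss12AG at -0.958. Since the 16 libraries pool both tissues, r over them also carries the tissue difference. Within the 8 ovary libraries r was 0.846 for miR-981, 0.587 for miR-277, 0.806 for let-7, 0.7015 for miR-1 and 0.699 for miR-252. Within the 8 fat body libraries these were 0.899, 0.957, 0.913, 0.976 and 0.868. The 5p sequence had 0.879 in ovary and 0.928 in fat body, and miR-276b 3p had 0.699 and 0.875. Each tissue's set includes its day 9 replicate 2 library, where miR-276a was highest among ovary libraries (182899) and lowest among those of fat body (76670). These values of r therefore also carry that library, and r within a tissue without it is not given here.

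Lists of miRNAs were compared with the miR-276 differences over the mean of the 4 days, where the median of all tested sequences was 0.20 on the log2 scale and 37.1% of them were called, 24.6% higher and 12.5% lower in ovary. The lists count sequences, so arms and length forms of 1 miRNA can enter more than once and are not independent. The lists also share members. Both miR-8 and miR-277 stand in those of fat body and of mosquitoes, and miR-989 and miR-92 forms in those of mosquitoes and of ovary. Names were matched by exact number, so miR-309a, miR-309b, miR-5a and miR-5b did not enter. Of 13 sequences of fat body and metabolism miRNAs, 7 were called lower in ovary and 0 higher, with a median of -0.66 (8 lower without the day 9 pair). Of 27 sequences of ovary and early embryo miRNAs, 24 were called higher and 0 lower, with a median of 2.21 (26 higher without that pair). By day, 2 of these 27 were called higher at day 1, where 3.12% of all sequences were called (median 0.20, all 0.17). At day 5 it was 1, where 2.18% were called (median 0, all 0.06). At day 13 it was 26, where 44.9% were called (median 7.08, all 0.35). At these days 0 were called lower. Over the mean of the 4 days, of 16 sequences of miRNAs of egg development in mosquitoes, 6 were called higher and 4 lower. Their median was 0.10 (6 and 4 called without that pair). Some miRNAs listed for muscle and nerve differed between the tissues too, though the cell types in the dissected tissue were not measured. Of 4 muscle sequences, all arms or length forms of miR-1, 3 were called lower in ovary, where 12.5% of all sequences were. Of 3 nerve miRNAs 2 were called lower, and miR-124 was not (log2 -0.35, adjusted p = 0.559 in limma). Without that pair these counts were 4 and 2. The muscle miRNAs summed to 0.483% to 6.71% of ovary libraries and 1.23% to 8.07% of fat body libraries. At day 13, where miR-276a differed, they summed to 0.483% and 0.490% in ovary and to 7.97% and 7.78% in fat body. The nerve miRNAs summed to 0.00509% to 0.132% in ovary and 0.0158% to 0.155% in fat body, and the part of either in the miR-276 differences was not tested.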

How the data were processed

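Per the labels' protocols, total RNA was extracted with Trizol, small RNA libraries were made with a TruSeq kit and sequenced on an Illumina HiSeq instrument, and ACGT101-miR removed adapter dimers, junk, low complexity reads, common structural RNA and repeats. The authors deposited 1 table of normalised signal per mature sequence, marked as norm per the file headers. Not given in the sources used here are the genome build, the scaling and how reads with several matches were counted.

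The members, lists and rules were chosen with earlier results of these data known. Entries with the same sequence were summed. Low values in each library were multiples of 1 step (91.8% to 96.4% whole within 0.1 for sequences with 1 entry, 87.0% to 92.6% for all). Values divided by that step gave recovered reads, which served only the tests with edgeR 4.0.16 and DESeq2 1.42.0. In a separate check over all entries, with values up to 20 times the smallest and a step fitted from the smallest up, which is a part of a read where entries share reads, 98.3% to 100% were whole multiples in 15 libraries and 91.2% in ovary day 9 replicate 2. Those tests left out that library. Both libraries of a group were compared, and 0 pairs were identical (chi-square per degree of freedom 23.8 to 1829). Low values rest on few reads and are less precise, and without molecular identifiers a read is not an independent molecule.

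Sequences that reached a signal of 10 in 2 or more libraries were tested on log2(signal + 1) with limma 3.58.1 in R 4.3.3, with 8 group means, an intensity trend, 8 residual and 4.91 prior degrees of freedom, and Benjamini-Hochberg adjustment with a threshold of 0.05. The span given for a joint test or an interaction is the largest minus the smallest of the 4 day values. Shares and ratios were tested by exact permutation. The interaction tests by permutation, whose null is no tissue difference on any day, and the arm ratios of single 3p sequences were added after the data were seen. The method was tested on simulated data, and the outcome is not given here. Duplexes were folded with RNAduplex 2.7.2.

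Named were all miR-276 sequences, the 5 others with the highest mean share in each tissue, the 5 with the highest and 3 with the lowest correlation with miR-276a, and members of the lists. Replicate numbers were checked as a pairing over 28 pairs of groups. The correlations of replicate differences ran from -0.753 to 0.362, 9 lay above 0.1, and the numbers were not treated as pairs. Alternatives were other scalings, no filter, another pseudocount, entries taken once, edgeR, DESeq2, a replicate block and leaving out libraries.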

Additional observations from a re-analysis of the deposited data

Results flagged for a closer look

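The tissue difference in the miR-276a to miR-276b 3p ratio differed in size and direction between days, and its test did not pass with adjustment. On the log2 scale the ovary minus fat body difference spanned 1.504 over days (-0.29, -0.11, 0.05 and 1.22 at days 1, 5, 9 and 13), with an exact permutation p of 0.0201 for exchanging tissues within days and 0.0602 after adjustment over 12 tests. The null of that test is no tissue difference on any day. Both ovary replicates of day 13, at 89.8 and 88.4, lay above both fat body replicates, at 36.5 and 40.2.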

How the results depend on the processing

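Depth limits the miR-276 forms of low signal, and 2 libraries a group limit every test. Apart from leaving out 1 library, 685 of the values of single days and steps or of the length forms kept their side of the threshold. Changes of sign without a call in either setting are counted among these. An instance is miR-276b 3p between tissues at day 1, which ran between -0.60 and 0.07 over the settings. A further 38 gained and 5 lost a call. The sign turned with a call in 1, the form of miR-276b 3p with 1 base more at day 9. Its difference was -1.87 without both day 9 replicate 2 libraries, 0.25 with all, and -1.18 to 1.68 leaving out 1 library. Log2 differences over the mean of 4 days lost their limma call with library totals (-0.48 for miR-276a, -0.70 for miR-276b 3p, -0.85 for 5p) and, for the first 2, with totals that leave out miR-276 (-0.63 and -0.85). Without both day 9 replicate 2 libraries, miR-276a differed by -1.26 over the mean of 4 days and 174 sequences were called, joint tests gained calls in ovary for miR-276a (1.10) and 5p (1.46) and in fat body for miR-276a (0.99), interactions for miR-276a (1.30), miR-276b 3p (2.64) and 5p (1.95), the share of miR-276a had a tissue difference of -11.2 points and an ovary span of 19.9, and 187 and 175 sequences were called on shares with and without miR-276. Without day 9, calls were gained in joint tests for miR-276a in ovary (0.68) and fat body (0.99) and miR-276b 3p in fat body (0.82), in interactions for miR-276a (1.14) and miR-276b 3p (2.64), and for the share of miR-276a between tissues (-9.63). Without day 9 the unadjusted permutation p rose above 0.05 for the a to b ratio over days in ovary (2.43) and fat body (0.93), where 6 libraries allow no p below 0.0667, and for the arm ratio between tissues (0.34, p = 0.0556 by exact permutation). With miR-276b 3p alone over 5p the arm ratio had a tissue difference of 0.16, an ovary span of 2.74 and an interaction of 1.93. The numbers did not pair the libraries, and with the replicate block the differences over the mean of 4 days were -0.86, -1.08 and -1.23 for miR-276a, miR-276b 3p and 5p, with the calls kept.

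Leaving out 1 library at a time, the difference over the mean of 4 days ran between -1.10 and -0.62 for miR-276a, -1.34 and -0.82 for miR-276b 3p and -1.51 and -0.96 for 5p. The joint spans in ovary ran between 0.64 and 1.10, 2.83 and 3.31, and 0.47 and 1.46 in the same order, those in fat body between 0.99 and 2.21, 0.82 and 2.54, and 0.55 and 2.30, and the interactions between 1.14 and 2.37, 2.40 and 3.61, and 0.89 and 2.12. All 3 joint tests in fat body and the interactions of miR-276a and miR-276b 3p were called without fat body day 9 replicate 1, and the interaction of miR-276b 3p also without ovary day 9 replicate 1 or fat body day 9 replicate 2. Called sequences over the mean of 4 days numbered 78 to 163, the lowest without ovary day 9 replicate 1, and those on shares 87 to 164 with and 84 to 149 without miR-276. The share difference ran between -10.2 and -6.06 points, below an unadjusted exact p of 0.05 without either ovary library of day 1 or fat body day 9 replicate 2. Its span over days ran between 18.4 and 20.1 in ovary (below 0.05 without either day 9 library), between 8.67 and 25.4 in fat body (below 0.05 without day 9 replicate 1), and its interaction between 15.7 and 28.7. For the log2 a to b ratio the tissue difference ran between 0.01 and 0.36, the spans between 2.41 and 2.45 in ovary and 0.86 and 1.00 in fat body, and the interaction between 1.44 and 1.57. For the log2 arm ratio these were 0.30 to 0.44, 0.23 to 0.70, 0.46 to 0.71, and 0.38 to 0.87. The cause of these changes was not tested.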
